A study of Rattus norvegicus with 13 samples.

Results

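*Prss35*, *Mfap3l*, *Bnc2*, *Myh1*, *Crxos1*, *Nars2*, *Sned1* and *Gmfg* are 8 of the 14217 named genes measured in rat cortical cultures, and they were chosen because their ratios on the 3 neuron arrays were among the lowest of all named genes. They are read by 12 of 31042 probe sets that are not controls: 5 carry *Myh1* and 1 carries each of the other genes. The neuron values therefore define the set and are given below as a description with no test. The regenerating axons did not enter the choice, and whether they keep the excess over neurons is the question followed here.

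The cells were rat cortical neurons grown in Neurobasal E medium with B27 in a microfluidic culture device whose separate chambers let axons be harvested without cell bodies. Regenerating axons (3 arrays) were cut on day 11 and collected on day 13 after 2 days of regrowth. Neurons (3 arrays) were uncut and were taken on day 13 from the chamber of the cell bodies, and uninjured axons (7 arrays) were uncut and collected on the same day. All groups share medium, device and age, and each array pooled 3 devices, whose polyadenylated RNA went through 2 rounds of amplification. The chamber of the cell bodies holds dendrites, the first stretch of each axon and any glia of the culture as well as neuronal somata. The uninjured arrays stem from 3 culture batches, with no word on which array came from which, and for the other groups nothing is said about separate cultures. The p-values below therefore measure only the spread between these arrays, which may be technical, and the small number of arrays limits the precision.

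Every deposited value is a ratio. Uninjured arrays 1 to 3 and 4 to 6 are each centred on a median of 1 in 100% of rows, and array 7 equals 1 throughout, so 6 uninjured arrays carry a spread. Any difference in level between these sets is lost by this centring, so the uninjured ranges below may be too narrow. The denominator of the regenerating and neuron arrays is not given in the sources used here. The level in uninjured axons was used as the reading of it, and each statement against uninjured axons depends on that. A ratio carries no level: a ratio near 0.1 in neurons can come from a transcript that is scarce in neurons or from a reading near background in either sample. In such bulk samples fewer cells of a type and less RNA per cell cannot be told apart. The median ratio over all probe sets lay between 1.01 and 1.02 on the regenerating arrays and between 0.937 and 0.978 on the neuron arrays. The 18 hybridisation control probe sets, which read transcripts added to each sample, had medians of 1.14, 1.44 and 1.57 on the regenerating arrays and of 0.275, 0.910 and 0.157 on the neuron arrays.

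As background, axons hold a subset of the messenger RNAs made in the cell body, carried along microtubules with RNA-binding proteins and translated locally during growth, maintenance and repair. The 8 genes do not form a pathway. They encode a protease-like secreted protein and a mitochondrial enzyme, a pair of nuclear regulators, a muscle motor protein and an actin regulator, and a pair of proteins of the cell surface and matrix.

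Regenerating axons kept an excess over neurons in 7 of the 8 genes, from 1.53-fold in *Gmfg* to 11.9-fold in *Bnc2*, and *Myh1* was the exception. By the means, *Gmfg*, *Crxos1*, *Prss35* and *Sned1* kept only part of it. Their uninjured level was 5.16, 6.26, 11.0 and 4.97 times the neurons, beside 1.53, 2.67, 5.38 and 3.15 times in regenerating axons. For *Mfap3l*, *Nars2* and *Bnc2* it was 9.57, 6.22 and 7.73 times, beside 8.11, 5.83 and 11.9 times. In *Bnc2*, *Mfap3l*, *Nars2*, *Prss35*, *Sned1*, *Crxos1* and *Gmfg* all 3 regenerating arrays read above all 3 neuron arrays, as they did in 40.4% of all probe sets. Since the genes were picked for low neuron values, nothing is read from the difference between these shares. The same choice tends to enlarge each fold and log2 difference over neurons. The SEs given with them below cover only the spread between arrays. The median over the 8 genes was log2 -0.85 in regenerating axons and -2.72 in neurons, and the median of the differences, regenerating minus neurons, was 2.04. Over all named genes the corresponding medians were 0.020, 0.22 and -0.23. By array, the median ratio of the 8 genes was 0.603, 0.564 and 0.596 in regenerating axons, against 0.131, 0.184 and 0.125 in neurons. The 3 regenerating arrays thus differed little from each other in this median, and all were more than 3 times the highest neuron array.

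**Figure D1:**
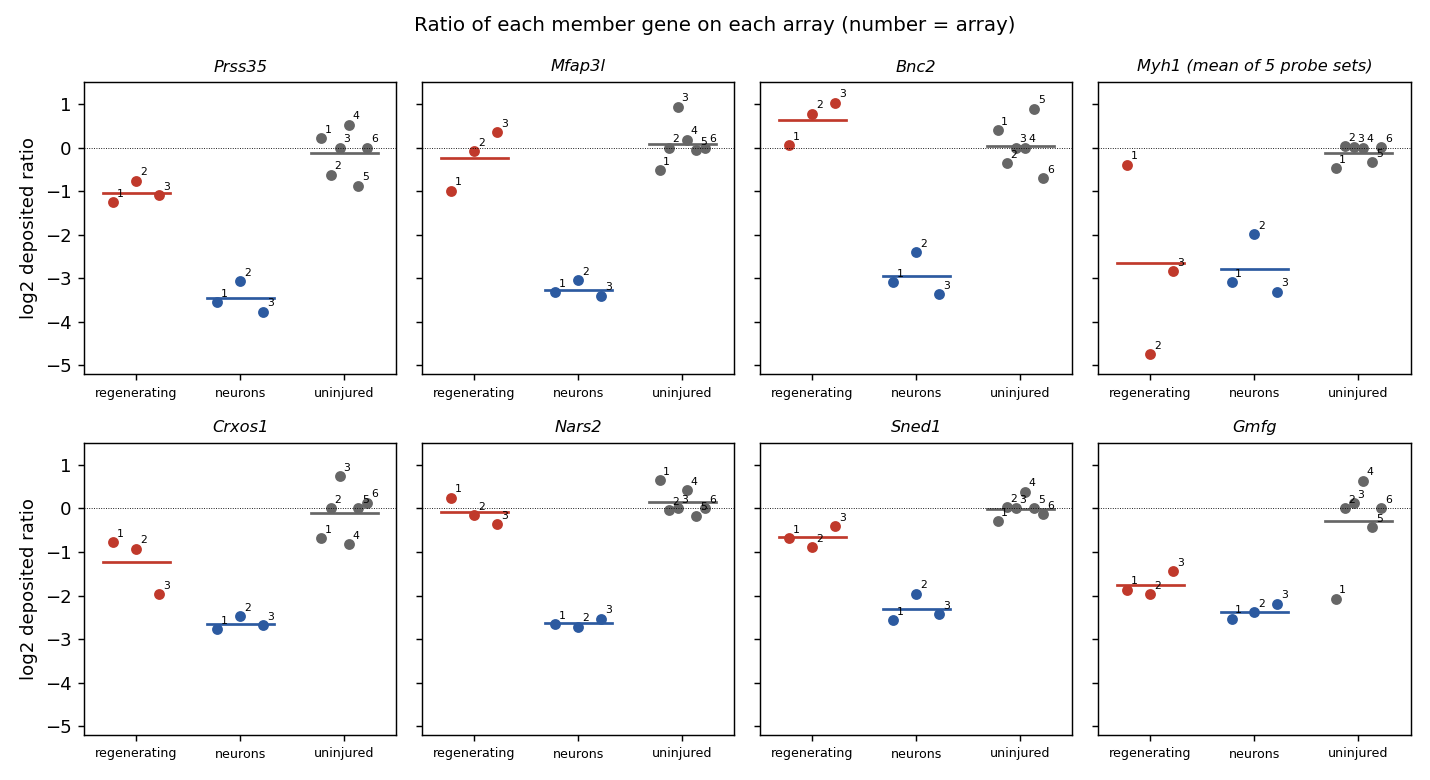
Deposited ratio of each gene on each array, on a log2 scale, for regenerating axons, neurons and uninjured axons. Points are arrays, numbered as in the labels, bars are group means of the log2 ratios, and the dotted line is a ratio of 1. In 7 genes the regenerating points lie above all neuron points, and in *Myh1* they span from 0.0375 to 0.762.

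Against uninjured axons no probe set of the 8 genes passed in regenerating axons, in either direction (limma, adjusted p over all 31042 probe sets, threshold 0.05). Of all probe sets, 0.335% passed as lower and 0.00966% as higher. At an unadjusted p under 0.05, 4 of the 12 probe sets qualified, beside 10.9% of all. The means lay below a ratio of 1 in 11 of the 12, beside 45.7% of all, and *Bnc2* was the gene above 1. Since 5 of the 12 read *Myh1*, the probe sets are not separate items. By gene the mean lay below 1 in 7 of the 8. All 3 regenerating arrays lay below all 6 uninjured arrays in 3 of the 12, namely *Sned1* and a pair of *Myh1* probe sets (10.9% of all probe sets), and above them in none (10.3% of all). If the denominator is the uninjured level, it is the same quantity that made the neuron ratios low, so regenerating and neuron ratios are not independent of each other. The error of the uninjured level in this test, that of 1 array, was assigned and not measured, and this assignment decides the count: with the error of a mean of 7 arrays 8 of the 12 probe sets passed as lower, and with none 9 did.

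*Prss35* encodes a secreted protein with the fold of trypsin-like serine proteases that lacks the usual catalytic serine. Its probe set (1379747_at) read 0.420, 0.590 and 0.470 in regenerating axons and 0.0854, 0.119 and 0.0734 in neurons, against 0.546 to 1.44 with a median of 1 on the uninjured arrays. Regenerating axons sat between the other groups: clear of the neurons, and overlapping the uninjured axons only through array 2. Their mean was 5.38 times the neuron mean (log2 difference 2.43 ± 0.25, SE, n = 3 arrays each). Against uninjured axons it was log2 -1.03 ± 0.47 (SE of the limma fit, which includes the assigned error of the uninjured level, n = 3) with an adjusted p of 0.474 by limma. The neuron mean, log2 -3.46 with an SD of 0.36, was the lowest of the 8 genes.

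Of the other trypsin-fold serine protease genes, 20 were measured by 24 probe sets, and 11 of these passed as lower in neurons than in uninjured axons and none as higher (limma, adjusted p). The list median was log2 -0.68. The lowest was *Prss32* (-1.66 ± 0.24, adjusted p = 0.000456 by limma) and the highest *Prss23*, the close relative of *Prss35*, at 0.46 ± 0.33 with an adjusted p of 0.260 by limma. Over all probe sets, to be read beside this and each later list, 27.5% passed as lower in neurons and 28.4% as higher. None of the 24 passed in regenerating axons, where the list median was 0.037.

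*Nars2* encodes the asparaginyl-tRNA synthetase of mitochondria, which charges the mitochondrial tRNA with asparagine. Its probe set (1381448_at) read 1.19, 0.894 and 0.776 in regenerating axons and 0.158, 0.152 and 0.173 in neurons, against 0.893 to 1.57 with a median of 1 on the uninjured arrays. It had the tightest neuron values of the 8 genes (SD 0.10 on the log2 scale), and its regenerating arrays overlapped the uninjured range. By the means, regenerating axons read 5.83 times the neurons (log2 difference 2.54 ± 0.19, SE, n = 3 each). Against uninjured axons it was log2 -0.093 ± 0.34 with an adjusted p of 0.967 by limma.

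The other mitochondrial tRNA synthetase genes lay on both sides of the uninjured level in neurons. None was as low as *Nars2*, as the choice of the lowest neuron values would give. Of 15 probe sets for 12 such genes, 4 passed as lower in neurons and 6 as higher, with a median of log2 0.52. *Ears2*, for glutamate, was lowest at -1.03 ± 0.24 (adjusted p = 0.00542 by limma), and *Yars2*, for tyrosine, was highest at 1.86 ± 0.22 (adjusted p = 0.000125 by limma). Of 34 probe sets for 19 cytosolic synthetase genes, 3 passed as lower and 23 as higher, with a median of 2.02. *Nars1*, the cytosolic counterpart of *Nars2*, was higher in neurons by log2 4.38 ± 0.30 (adjusted p = 7.12e-06 by limma). Probe sets of the same gene disagreed in several genes of this list. The highest value was a probe set of *Eprs1* at 4.62, and another of the same gene stood at -0.61. The lowest was a probe set of *Cars1* at -0.82, whose other probe sets lay between 1.21 and 2.18. Those of *Kars1* stood at 3.61 and -0.80. *Nars2*, like each of the chosen genes except *Myh1*, has 1 probe set and allows no such check. None of the mitochondrial or cytosolic synthetase probe sets passed in regenerating axons.

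*Bnc2* encodes basonuclin 2, a zinc finger protein of the nucleus known from epithelial, fibroblast and germ cells. Its probe set (1385486_at) read 1.04, 1.72 and 2.05 in regenerating axons and 0.118, 0.190 and 0.0972 in neurons, against 0.614 to 1.86 with a median of 1 on the uninjured arrays. All regenerating arrays were at or above the uninjured median, and array 3 exceeded every uninjured array. The regenerating mean was 11.9 times the neuron mean (log2 difference 3.58 ± 0.41, SE, n = 3 each), beside 7.73 times for the uninjured level over the neuron mean. Against uninjured axons *Bnc2* stood at log2 0.63 ± 0.55, with an adjusted p of 0.788 by limma. *Bnc1*, the only other basonuclin gene, stood at log2 -0.20 ± 0.27 in neurons (adjusted p = 0.537 by limma).

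*Crxos1* is named as the transcript on the strand opposite to *Crx*, a homeobox gene of photoreceptors, and in mouse it encodes a homeobox protein. Its probe set (1395603_at) read 0.583, 0.526 and 0.254 in regenerating axons and 0.146, 0.179 and 0.156 in neurons, against 0.564 to 1.68 with a median of 1 on the uninjured arrays. Regenerating arrays 1 and 2 lay close to the lowest uninjured arrays, and array 3 was within 2-fold of the neurons. By the means, regenerating axons read 2.67 times the neurons (log2 difference 1.42 ± 0.39, SE, n = 3 each). Against uninjured axons it was log2 -1.23 ± 0.59 with an adjusted p of 0.501 by limma. *Crx* itself stood at log2 -0.59 ± 0.27 in neurons (adjusted p = 0.0855 by limma) and 0.076 in regenerating axons. Of 11 probe sets for 9 eye and paired homeobox genes, *Crx* included, 5 passed as lower in neurons and none as higher, with a median of -0.66. A probe set of *Otx2*, a regulator of *Crx* in the retina, was lowest at -1.70 ± 0.24 (adjusted p = 0.000410 by limma), and a probe set of *Rax* was highest at 0.10 ± 0.27 (adjusted p = 0.762 by limma).

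*Mfap3l* encodes a membrane protein of the immunoglobulin type named for its likeness to the microfibril-associated protein 3. Its probe set (1398185_at) read 0.505, 0.942 and 1.28 in regenerating axons and 0.0999, 0.121 and 0.0946 in neurons, against 0.697 to 1.91 with a median of 1 on the uninjured arrays. Regenerating arrays 2 and 3 fell inside the uninjured range and array 1 below it, while the neuron arrays lay close together far beneath both. The regenerating mean was 8.11 times the neuron mean (log2 difference 3.02 ± 0.41, SE, n = 3 each). Against uninjured axons it was log2 -0.24 ± 0.55 with an adjusted p of 0.941 by limma, and without regenerating array 1 the sign turned (0.13, adjusted p = 0.965 by limma, in a range of 0.241 to 0.965 over 17 alternatives). Among 13 probe sets for 10 other microfibril and elastic fibre genes, 3 passed as lower in neurons and 2 as higher, with a median of -0.14. A probe set of *Eln*, for elastin, was lowest at -1.80 ± 0.33 (adjusted p = 0.00152 by limma). The pair of probe sets of *Mfap3*, the nearest relative, disagreed, at 2.32 ± 0.48 (adjusted p = 0.00309 by limma) and -0.51 ± 0.21 (adjusted p = 0.0600 by limma).

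*Sned1* encodes a secreted matrix protein with sushi, nidogen and EGF-like domains. Its probe set (1380250_at) read 0.623, 0.539 and 0.755 in regenerating axons and 0.170, 0.257 and 0.186 in neurons, against 0.813 to 1.31 with a median of 1 on the uninjured arrays. The 3 groups did not overlap: every regenerating array lay below every uninjured array and above every neuron array. Taken singly, these conditions were met by 10.9% and 40.4% of all probe sets. The regenerating mean was 3.15 times the neuron mean (log2 difference 1.65 ± 0.23, SE, n = 3 each). Against uninjured axons it was log2 -0.66 ± 0.26 with an adjusted p of 0.372 by limma. Of 20 probe sets for 15 other matrix genes with such domains or bound to such proteins, 3 passed as lower in neurons and 8 as higher, with a median of 0.26. *Hspg2*, for perlecan, was lowest at -0.93 ± 0.27 (adjusted p = 0.0142 by limma), and *Agrn*, for the synapse organiser agrin, highest at 4.46 ± 0.33 (adjusted p = 1.00e-05 by limma).

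*Gmfg* encodes glia maturation factor gamma, an actin regulator of the ADF-homology class found mainly in blood and immune cells. Its probe set (1373490_at) read 0.274, 0.255 and 0.369 in regenerating axons and 0.173, 0.192 and 0.219 in neurons, against 0.238 to 1.56 with a median of 1 on the uninjured arrays. Uninjured array 1, at 0.238, lay below regenerating arrays 1, 2 and 3, and the other uninjured arrays lay at 0.744 and above. The regenerating mean was 1.53 times the neuron mean (log2 difference 0.61 ± 0.19, SE, n = 3 each), the smallest distance of the 7 genes that kept one. Against uninjured axons it was log2 -1.76 ± 0.73 with an adjusted p of 0.401 by limma. The spread of the uninjured arrays within their sets, an SD of 0.95 on the log2 scale, was at the percentile 99.0 of all probe sets.

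Most probe sets of the other ADF-homology genes lay on the opposite side in neurons. Of 12 probe sets for 7 genes, 9 passed as higher in neurons and none as lower, with a median of log2 2.32. *Dbn1*, for the dendritic spine protein drebrin, was highest at 5.46 ± 0.30 (adjusted p = 3.24e-06 by limma), and a probe set of *Twf1* was lowest at -0.28 ± 0.28 (adjusted p = 0.403 by limma). *Gmfb*, the brain form of the factor, had 4 probe sets between -0.25 and 5.29. None of the 12 passed in regenerating axons.

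Markers of microglia and macrophages, cells that express *Gmfg*, also read lower in neurons than in uninjured axons. Of 27 probe sets for 22 genes, 20 passed as lower and none as higher, beside 27.5% and 28.4% of all probe sets. The list median was log2 -0.97. The lowest was *Mrc1*, the mannose receptor (-2.45 ± 0.48, adjusted p = 0.00239 by limma), and the highest a probe set of the microglial receptor *P2ry12* (-0.25 ± 0.19, adjusted p = 0.278 by limma). By array, the median of these markers was 0.13 to 0.22 in regenerating axons, -1.18 to -0.82 in neurons and -0.016 to 0 in uninjured axons. In regenerating axons neither *Gmfg* nor any of the 27 passed, and *Mrc1* stood at -1.13 ± 0.56 there (adjusted p = 0.513 by limma). Low neuron medians were not particular to these markers: skeletal muscle genes had -0.79 and the other trypsin-fold serine proteases -0.68, while astrocyte genes had 2.55. The part of such cells in the result for *Gmfg* was not tested, and ratios do not show which markers are at background.

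*Myh1* encodes the fast IIx myosin heavy chain of skeletal muscle, and it behaved unlike the other 7 genes. Averaged over its 5 probe sets it read 0.762, 0.0375 and 0.139 in regenerating axons and 0.117, 0.253 and 0.101 in neurons, against 0.721 to 1.02 on the uninjured arrays. Regenerating array 1 lay within the uninjured range, array 2 lay below all neuron arrays, and array 3 lay among them. Regenerating axons averaged log2 -2.66 with an SD of 2.18, and neurons averaged -2.79 with an SD of 0.71, a difference of 0.14. This difference rests on single arrays: without regenerating array 1 it was -0.996, without regenerating array 2 it was 1.18, and without neuron array 1 or 3 it was -0.011 or -0.12.

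The disagreement ran through all 5 probe sets. Probe set 1377114_at read 0.935, 0.01 and 0.0412 in regenerating axons and 0.0810, 0.0739 and 0.136 in neurons, and 0.01 is the lowest value in the table. Probe set 1377719_a_at read 0.614, 0.0386 and 0.0932 in regenerating axons and 0.122, 0.334 and 0.0750 in neurons. Probe set 1383161_a_at read 0.798, 0.0316 and 0.132 in regenerating axons and 0.134, 0.450 and 0.0865 in neurons. In these probe sets array 1 was the highest and array 2 the lowest of the regenerating arrays, and the same held for the remaining pair. Probe set 1377720_x_at read 0.680, 0.0549 and 0.201 in regenerating axons and 0.164, 0.294 and 0.148 in neurons. Probe set 1383162_at read 0.827, 0.110 and 0.518 in regenerating axons and 0.103, 0.320 and 0.0791 in neurons, and so kept 2 of its regenerating arrays above all neurons. The SD over the regenerating arrays was 1.52 to 3.35 for the 5 probe sets, at percentiles of 99.6 and above among all probe sets.

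Regenerating array 1 exceeded both other regenerating arrays more than 4-fold in 155 of 31042 probe sets (0.499%), 3 of them of *Myh1*, and fell short of both by more than 4-fold in 1 (0.00322%). Against uninjured axons the *Myh1* probe sets stood at log2 -3.78 ± 1.78, -2.94 ± 1.09, -2.35 ± 0.96, -2.74 ± 1.23 and -1.47 ± 0.82, with adjusted p-values of 0.331 to 0.586 by limma. Without regenerating array 1, 4 of the 5 passed as lower, at log2 -5.62, -4.06, -3.25 and -3.95 with adjusted p-values of 0.00631, 0.00332, 0.0311 and 0.0220 by limma. The fifth, 1383162_at, stood at -2.06 with an adjusted p of 0.278. Without regenerating array 2 the same 5 stood at -2.35, -2.06, -1.44, -1.63 and -0.61, with adjusted p-values of 0.448 to 0.680 by limma. Over all alternatives run, the adjusted p-values of the 5 probe sets by limma lay between 0.00332 and 0.699. Leaving out regenerating array 1 raised the probe sets called lower over the whole table as well, to 462, against 104 with all arrays. Without regenerating array 2 there were 6.

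**Figure D2:**
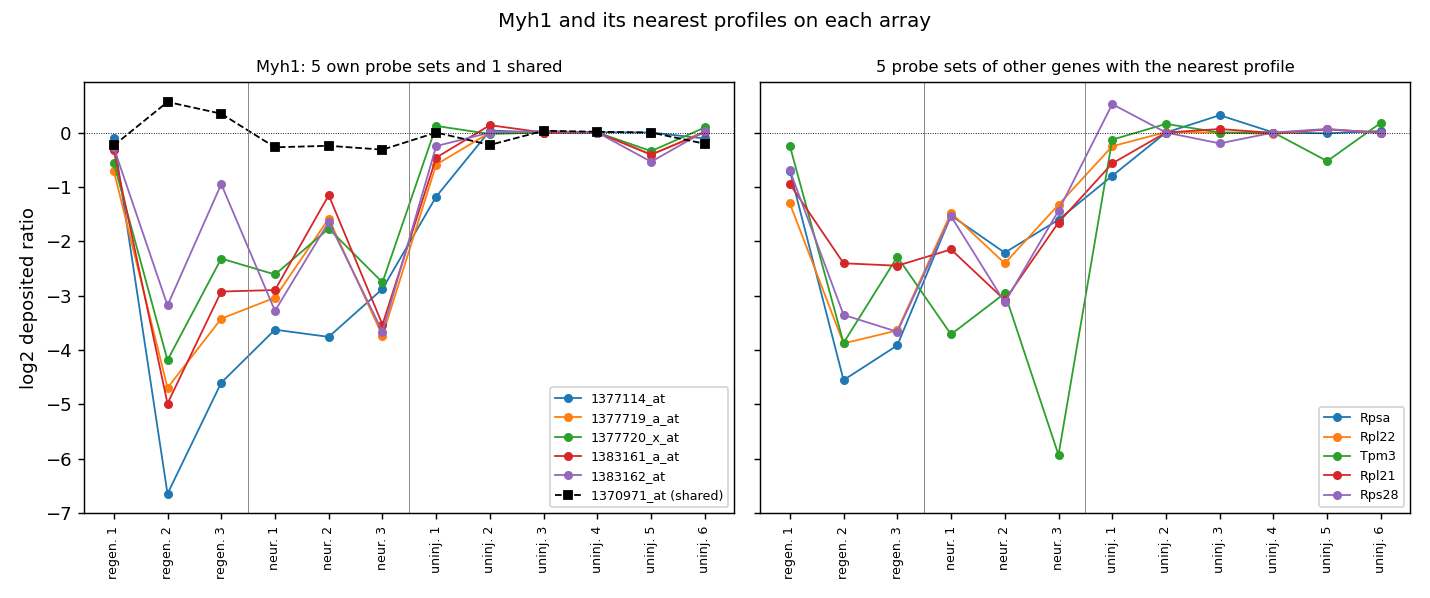
Log2 deposited ratio on each of 12 arrays for the 5 *Myh1* probe sets and a probe set shared with *Myh2* and *Myh8* (left), and for the probe sets of other genes nearest to *Myh1* (right). Lines only join the readings of 1 probe set, since arrays have no order. On the left all 5 *Myh1* probe sets are near 0 on regenerating array 1 and lowest on array 2 of that group, while the shared probe set, with ratios of 0.804 to 1.48, stays near 0 throughout.

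Other muscle myosins were less low than *Myh1* in neurons, as its choice for low values would give. A probe set whose annotation names *Myh2*, *Myh1* and *Myh8* together (1370971_at) read 0.848, 1.48 and 1.27 in regenerating axons and 0.828, 0.845 and 0.804 in neurons, against 0.854 to 1.02 on the uninjured arrays. It was highest on regenerating array 2, where 4 of the 5 own probe sets had their lowest value. *Myh2* and *Myh4*, the neighbours of *Myh1* in the muscle myosin cluster, stood at log2 -0.23 ± 0.21 and -0.012 ± 0.18 in neurons (adjusted p = 0.385 and 0.961 by limma). How far an array tells near-identical paralogues apart depends on the probe sequences, which were not used here, so the values of *Myh1* are uncertain in this respect. Of 14 probe sets for 11 other myosin heavy chain genes, 4 passed as lower in neurons and 1 as higher, with a median of -0.17. Of all probe sets 27.5% passed as lower and 28.4% as higher, so the lower calls came at about the general rate. A probe set of *Myh11*, of smooth muscle, was lowest at -1.12 ± 0.20 (adjusted p = 0.00147 by limma). The 3 others that passed as lower, named here after their values were seen, were *Myh3*, of embryonic muscle (-0.998), a probe set of *Myh6*, of heart muscle (-0.998), and *Myh13*, of eye muscle (-0.92), with adjusted p-values of 0.00222 to 0.00426 by limma. None of the 14 passed in regenerating axons, where a probe set of *Myh7*, of slow and heart muscle, stood lowest at -1.42 ± 0.38 (adjusted p = 0.160 by limma). *Myh10*, the non-muscle form of neurons, was highest in neurons at 4.03 ± 0.48 (adjusted p = 0.000125 by limma).

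Skeletal muscle genes read lower in neurons as a list, though by less than *Myh1*, which was chosen for its low values. Of 30 probe sets for 23 genes, 18 passed as lower and none as higher, beside 27.5% and 28.4% of all probe sets. The list median was log2 -0.79. The lowest was a probe set of *Myl2*, a regulatory light chain of slow and heart muscle (-2.16 ± 0.30, adjusted p = 0.000352 by limma), and the highest was *Acta1*, for muscle actin (0.53 ± 0.60, adjusted p = 0.463 by limma). The median by array was -0.060 to -0.017 in regenerating axons, -0.93 to -0.69 in neurons and -0.050 to 0.0031 in uninjured axons. None passed in regenerating axons, and the split of the regenerating arrays seen in *Myh1* did not show in this median. The lowest of the list in regenerating axons was *Acta1*, at -1.69 ± 0.32 (adjusted p = 0.0616 by limma). Its ratios there were 0.277 to 0.371.

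The nearest profiles to *Myh1* over the 12 arrays, a comparison added after its values had been seen, belonged to *Rpsa* (root mean square difference 0.76 on the log2 scale), *Rpl22* (0.87), *Tpm3* (0.89), *Rpl21* (0.95) and *Rps28* (0.96). *Tpm3* encodes a tropomyosin and the others encode ribosomal proteins. *Rpsa* read 0.615, 0.0426 and 0.0663 in regenerating axons and 0.347, 0.216 and 0.329 in neurons. *Tpm3* read 0.845, 0.0684 and 0.205 in regenerating axons and 0.0763, 0.129 and 0.0164 in neurons. All 5 had regenerating array 1 as the highest of its group, as nearness to the *Myh1* profile would give. In neurons array 2 was the lowest for the ribosomal protein genes, while it was the highest for *Tpm3* and for *Myh1* averaged over its probe sets.

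**Figure D3:**
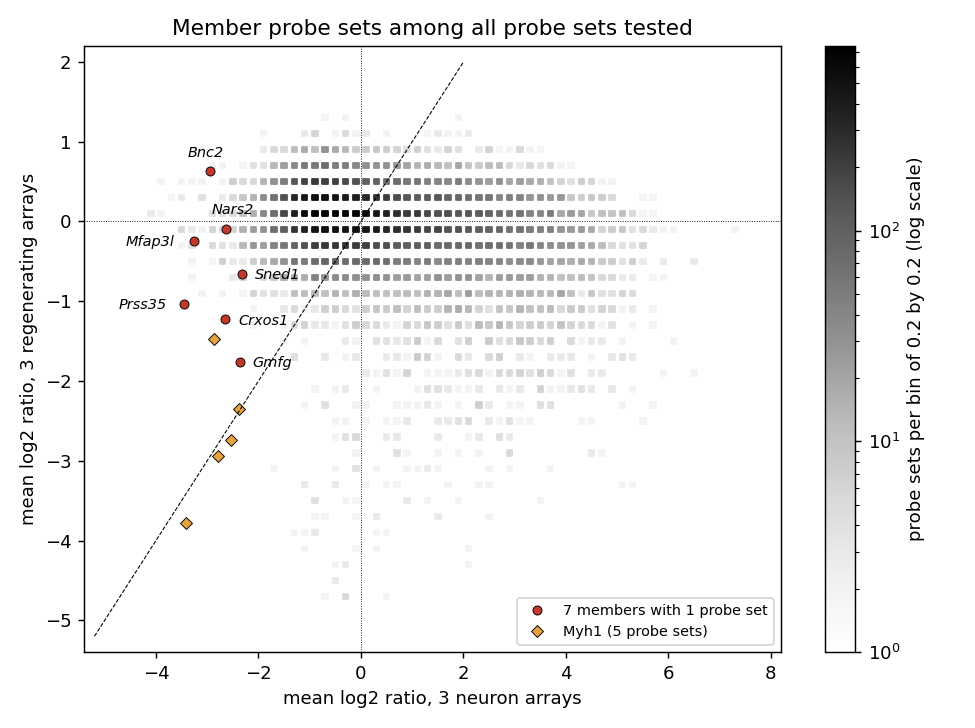
Mean log2 ratio of the 3 regenerating arrays against that of the 3 neuron arrays, with circles and diamonds for the 12 probe sets of the 8 genes and grey squares for the number of all 31042 probe sets in each bin. On the dashed line both means are equal. All 12 lie at the left edge by choice, and 4 of the *Myh1* probe sets lie near the line, the 8 other probe sets above it.

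The spread between arrays differed among the 8 genes. For 5 of them the uninjured arrays varied more within their sets than for the bulk of all probe sets: the percentile of that SD was 94.9 for *Prss35*, 93.2 for *Mfap3l*, 95.8 for *Bnc2*, 95.8 for *Crxos1* and 99.0 for *Gmfg*. It was lower for *Nars2* (81.9) and *Sned1* (58.4), and it ran from 36.5 to 91.8 over the *Myh1* probe sets. The regenerating arrays also varied widely for *Mfap3l*, *Crxos1* and *Bnc2*, with SDs of 0.68, 0.65 and 0.51 at percentiles 98.3, 98.0 and 95.4. The part of the hybridisation controls, which differed among the neuron arrays as given above, in the neuron ratios was not tested.

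All 12 probe sets had every neuron array below every uninjured array, as 36.8% of all probe sets did, which follows from the choice. By gene, the neuron means in order were *Prss35* (log2 -3.46, SD 0.36), *Mfap3l* (-3.26, SD 0.19), *Bnc2* (-2.95, SD 0.50), *Myh1* (-2.79, SD 0.71), *Crxos1* (-2.65, SD 0.15), *Nars2* (-2.64, SD 0.10), *Gmfg* (-2.37, SD 0.17) and *Sned1* (-2.31, SD 0.32). The neuron arrays of each pair of neighbours in this order overlapped. *Rpl37-ps2*, a ribosomal protein pseudogene, had the lowest mean of all named genes (-3.47) and is not among the 8, nor are *Ccr6* (-2.46), a chemokine receptor, and *Mrc1* (-2.45), which rank between *Nars2* and *Gmfg*. Just beyond *Sned1* came *Rpl21* (-2.30), *Lilrb2* (-2.29), *Adam3a* (-2.23) and *Itgb6* (-2.18). At the level of single probe sets 21 others with 1 symbol lay below the highest mean of the 12, and 18 of them belong to genes with several probe sets, whose average was higher. Among all 31042 probe sets, those without a single symbol included, *Prss35* ranked 37 and *Sned1* 196 from the lowest neuron mean. Many of the lowest neuron readings thus came from probe sets without a single symbol.

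In regenerating axons the order was another one. *Bnc2* ranked at percentile 98.4 of named genes, *Nars2* at 34.7 and *Mfap3l* at 20.9. *Sned1* (8.14), *Prss35* (5.05), *Crxos1* (4.20), *Gmfg* (2.73) and *Myh1* (1.15) lay toward the bottom. Low neuron ratios thus went with regenerating ratios from near the bottom to near the top of the scale. Among the 8 genes themselves, *Nars2* and *Sned1* had the most similar profiles over the 12 arrays (root mean square difference 0.50 on the log2 scale) and *Bnc2* and *Myh1* the least similar (2.02).

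The 5 probe sets of other genes lay nearest to the median profile of the 8: those of *Adam3a* (root mean square difference 0.32), *Zpbp2* (0.39), *Ccr6* (0.41), *Tfap2b* (0.43) and *Myl2* (0.45). *Adam3a* and *Zpbp2* are known from sperm, *Ccr6* from lymphocytes, *Tfap2b* from neural crest and kidney, and *Myl2* from slow and heart muscle. *Adam3a* read 0.649, 0.534 and 0.540 in regenerating axons and 0.187, 0.332 and 0.156 in neurons. Each of the 5 had its regenerating arrays above its neuron arrays, as nearness to this median profile would give.

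**Figure D4:**
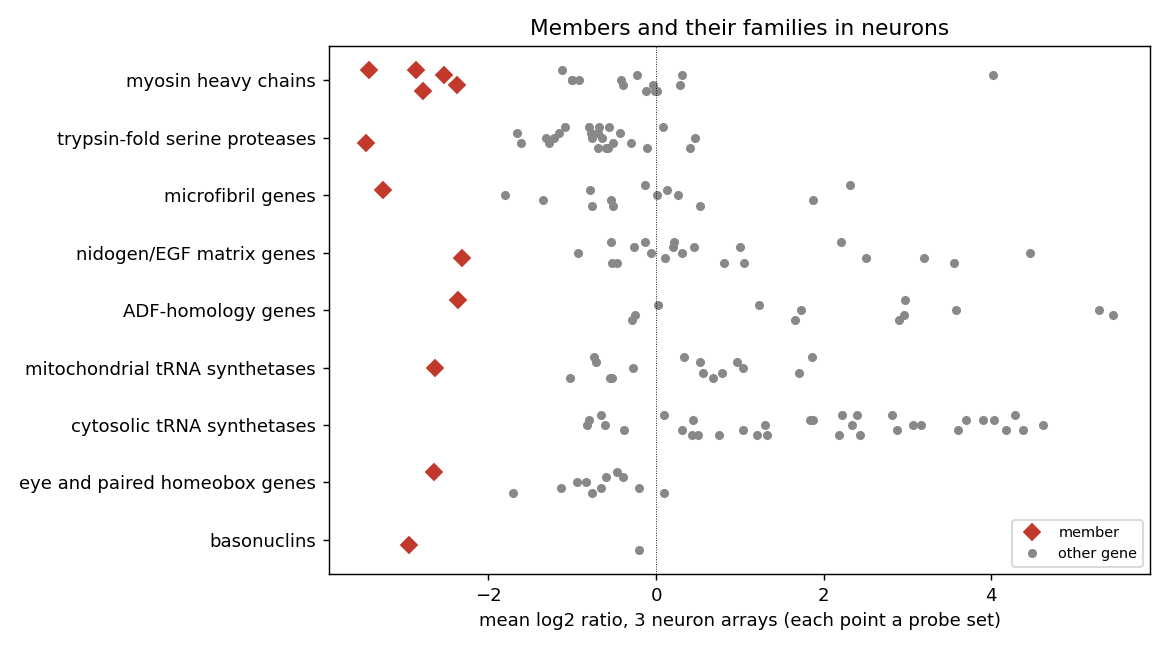
Mean log2 ratio of the 3 neuron arrays for each probe set of the 8 genes (diamonds) and of their families (circles), with 0 at the uninjured axon level as read here. Each diamond lies below all circles of its row, as the choice of the lowest neuron values would give. The circles of the cytosolic tRNA synthetases and of the ADF-homology genes lie mostly above 0, and those of the serine proteases and homeobox genes mostly below.

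The measured genes next to the 8 on the chromosome lay on both sides of the uninjured level in neurons. Gene order was read from the GRCr8 assembly, whose table held all 8 identifiers, and 13 of the 16 flanking genes had a probe set. None of these was as low in neurons as the gene it flanks, as the choice of the lowest neuron values would give. The lowest was *Cntln*, beside *Bnc2*, at log2 -1.05. *Me1* and *Snap91*, which flank *Prss35*, reached 4.02 and 4.70. *Hpf1*, beside *Mfap3l*, stood at 0.40 in neurons and -3.48 in regenerating axons, and *Selenow*, beside *Crxos1*, at 1.83 and -2.59.

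The labelled compartments were checked on lists of cell markers. Of 34 probe sets for 16 genes of neuronal somata and dendrites, 18 passed as higher in neurons and 6 as lower, with a median of log2 1.09. A probe set of *Map2*, of dendrites, was highest at 6.24 ± 0.93 (adjusted p = 0.000493 by limma), and a probe set of *Shank1* lowest at -1.28 ± 0.24 (adjusted p = 0.00170 by limma). Of 24 probe sets for 12 genes of axonal proteins, 13 passed as higher in neurons and 4 as lower, with a median of 1.35 in neurons and -0.76 in regenerating axons. *Stmn2* was highest at 5.93 ± 0.84 (adjusted p = 0.000367 by limma) and *Kif5c*, for an axonal kinesin, lowest at -1.71 ± 0.44 (adjusted p = 0.00899 by limma). Of 24 probe sets for 14 astrocyte genes, 17 passed as higher in neurons and 2 as lower, with a median of 2.55, led by *Sparcl1* (6.55 ± 0.39, adjusted p = 4.07e-06 by limma). A probe set of the astrocyte gene *Gja1* was lowest at -1.03 ± 0.22 (adjusted p = 0.00401 by limma).

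Fibroblast and vascular markers, cells in which *Bnc2* and *Sned1* are known, read slightly lower in neurons. Of 42 probe sets for 27 genes, 16 passed as lower and 1 as higher, beside 27.5% and 28.4% of all probe sets. The list median was log2 -0.37. A probe set of *Pdgfrb*, of pericytes, was lowest at -1.40 ± 0.21 (adjusted p = 0.000495 by limma), and *Pdgfra* was highest at 3.10 ± 1.24 (adjusted p = 0.0552 by limma). By array the median was -0.069 to 0.036 in regenerating axons, -0.47 to -0.33 in neurons and -0.014 to 0.017 in uninjured axons. None of the 323 probe sets in all the lists above passed in regenerating axons (limma, adjusted p), and at an unadjusted p under 0.05 there were 30 lower and 7 higher, 10 of the lower ones from the axonal list. Where a list above had no call in a direction in neurons, it had none at an unadjusted p under 0.05 either. The part of fibroblasts or vascular cells in the ratios of *Bnc2* and *Sned1* was not tested.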

How the data were processed

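GeneChip arrays of 13 samples in 3 groups were used. Per the submitters' processing notes RMA was used, with its version not given in the sources used here, yet the values the authors deposited are linear ratios of 31099 probe sets and not log2 signals. Denominators were read from the file: row medians of 1 within a tolerance of 0.0001. The 8 genes and all gene lists were chosen with earlier results of these data known.

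From the ratios, log2 values were fitted in R 4.3.3 by limma 3.58.1 (lmFit, eBayes; tables with numpy 2.4.6, pandas 2.3.3 and matplotlib 3.10.9) over the 31042 probe sets that are not controls. The spread was pooled from the regenerating arrays (or, for neurons, the neuron arrays) and uninjured arrays 1 to 3 and 4 to 6 about their own means. Uninjured array 7 stood for a reference with the error of 1 array. P-values were adjusted by Benjamini and Hochberg with a threshold of 0.05. No filter on low values was applied. The fit was tested on simulated data. These were given the same reference error that the fit assumes, so they cannot test that assignment.

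Symbols came from the platform's annotation, with 1 symbol for 20826 probe sets, several for 436 and none for 9780, and a gene's value averages the log2 ratios of all probe sets that carry its symbol alone. Named besides the 8 genes are those ranked among or just beyond them, the 5 nearest profiles, the lowest and highest probe set of each list in neurons, and close relatives. The profiles near *Myh1* and the flanking genes were added after values were seen. LOC and RGD symbols were left out of these choices. Alternatives changed the reference error, scaling, level of the fit, pseudocount, filter, source of the spread, replicate block and arrays left out.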

Additional observations from a re-analysis of the deposited data

Results flagged for a closer look

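Among the 12 probe sets of the 8 genes, the 6 uninjured arrays were searched for an array far from the others, and 2 were found. Chance gives such a result in about 1 of 20 groups of independent values, a rate that does not apply here, because each set of 3 uninjured arrays is centred on a median of 1. For *Myh1* probe set 1377114_at uninjured array 1 read 0.442, and the next lowest array read 0.927, a gap of 0.880 of the whole range. For *Myh1* probe set 1377720_x_at uninjured array 5 read 0.789, and the next lowest read 0.982, a gap of 0.681 of the range. The regenerating and neuron groups, with 3 arrays each, are too small for this search, so the distance of regenerating array 1 from arrays 2 and 3 in *Myh1* was not part of it.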

How the results depend on the processing

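The count of calls depended on the error given to the reference. With that error left out, 3707 probe sets were lower and 3539 higher in regenerating axons than in uninjured axons, 9 of the lower ones among the 8 genes. With the error of a mean of 7 arrays these counts were 2506, 1693 and 8, against 104, 3 and 0 with the error of 1 array. Higher calls numbered 5 at the gene level and 1 with the spread of the regenerating arrays alone. Leaving out 1 array at a time gave 0 to 462 lower and 0 to 17 higher calls, with 0 lower without regenerating array 3, 6 without array 2 and 462 without array 1. Without uninjured arrays 1, 2, 4, 5 and 6 the lower calls were 294, 16, 191, 35 and 17. Among the 8 genes 0 to 4 probe sets were then lower, the 4 being *Myh1* without regenerating array 1. With the replicate number as a replicate block 600 probe sets were lower and 68 higher, and 0 of the 8 genes. Deviations of same-numbered regenerating and uninjured arrays correlated at -0.31, -0.08 and -0.14. These values cannot decide whether equal numbers mark paired samples, because the denominator of the regenerating arrays is not known. With 0.1 added to each ratio the median log2 of the 8 genes was -0.74 in regenerating axons and -2.10 in neurons, a median difference of 1.45. The regenerating median ran from -0.86 to -0.79 as arrays were left out. Leaving out arrays, *Mfap3l* ran from -0.54 to 0.13, with the sign turned without regenerating array 1, and *Nars2* from -0.26 to 0.043, with the sign turned without array 3. The difference of *Myh1*, regenerating minus neurons, ran from -0.996 to 1.18 over the arrays left out, an alternative added after seeing the data, and was below 0 without regenerating array 1 (-0.996), neuron array 1 (-0.011) and neuron array 3 (-0.12). Of 198 values of the 12 probe sets under the alternatives 175 kept direction and call, 21 passed the threshold and 2 turned sign. The count of 7 genes with all regenerating arrays above all neuron arrays stayed at 7 as single arrays were left out. This alternative was added after seeing the data, and leaving out an array cannot lower such a count. Probe set 1377114_at has no value where probe sets at the lowest ratio are dropped. The cause of these shifts was not tested. Ratios leave signal over background unknown.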
